A study of Homo sapiens with 6 samples.

Results

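The ID genes and the E protein genes encode opposing helix-loop-helix proteins, and their transcripts were followed in Kasumi-1 cells kept with control or with the compound I1. The set was named gene by gene: the inhibitors ID1, ID2 and ID3 and the E proteins TCF3, TCF4 and TCF12, 6 genes in all. Of these, 5 have a row in the FPKM table of 29810 genes, and all 5 passed the filter on low values that left 11913 genes. TCF4 and the remaining family member, ID4, have no row in the table and were not analysed here. The genes were chosen by name, with no threshold, but with their FPKM in these same libraries in view, so their differences between the groups are given as descriptions without a p-value.

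Kasumi-1 is an established line of myeloblasts from an acute myeloid leukaemia with the t(8;21) translocation, which fuses RUNX1 to RUNX1T1. Polyadenylated RNA was sequenced from 3 samples incubated for 48 h with control, whose composition the labels do not give, and from 3 incubated for 48 h with 0.125 µM I1, a compound known here by its code name alone. All 6 samples are the same line, and nothing says that those of a group came from separate cultures. The spread between samples may therefore be technical.

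E proteins are basic helix-loop-helix transcription factors that bind the E box, a short palindromic DNA motif, as pairs with each other or with a tissue-specific partner such as TAL1 or LYL1. ID proteins carry the helix-loop-helix but lack the basic DNA-binding region, so an E protein paired with an ID protein cannot bind DNA. In blood, E proteins drive lymphoid fate and restrain proliferation, ID genes respond to BMP signals through SMAD factors, and in t(8;21) leukaemia the fusion protein is known to bind E proteins through its RUNX1T1 part.

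ID1 (ENSG00000125968) occupies bases 31605283 to 31606515 of chromosome 20 (hg38, plus strand), and TCF3 (ENSG00000071564) bases 1609290 to 1652605 of chromosome 19 (minus strand). Every I1 library had less of both transcripts than any control, so the 244 bases upstream of each are shown. For TCF3 the groups overlapped after the correction for GC content given below. The windows run from 250 to 7 bases before the RefSeq start (GRCh38.p14). They span chr20:31605039-31605282 on the plus strand and chr19:1652622-1652865 on the minus strand. Capitals mark E boxes (CANNTG), SMAD cores (GTCT, or AGAC on the other strand) and TATA boxes (TATAAA, or TTTATA on the other strand).
ID1: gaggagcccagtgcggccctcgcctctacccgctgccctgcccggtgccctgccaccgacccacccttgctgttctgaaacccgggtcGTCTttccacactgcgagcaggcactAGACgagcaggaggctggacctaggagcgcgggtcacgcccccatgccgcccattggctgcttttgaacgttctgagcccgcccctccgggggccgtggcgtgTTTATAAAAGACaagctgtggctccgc
TCF3: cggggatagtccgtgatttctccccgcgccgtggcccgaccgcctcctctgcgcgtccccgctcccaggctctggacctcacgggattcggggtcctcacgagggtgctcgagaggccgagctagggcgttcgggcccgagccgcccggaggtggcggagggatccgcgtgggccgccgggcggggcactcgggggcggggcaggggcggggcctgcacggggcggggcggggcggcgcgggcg
The ID1 window holds 3 SMAD cores, at 162, 136 and 25 bases before the start, and overlapping TATA letters on both strands at 33 and 31 bases. The TCF3 window holds neither motif but has 7 GC boxes (GGGCGG or CCGCCC, in lower case), against 2 in ID1, and 79.1% GC against 66.4%. Neither window holds an E box. Over 35116 RefSeq promoter windows of the same length, 61.1% hold an E box, 76.7% a SMAD core, 10.6% a TATA box and 42% a GC box. These matches describe the letters and not the binding of a factor. The windows of ID2 and ID3 overlap annotated exons and TCF12 has 5 alternative windows, and none of these is printed.

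The libraries were scaled to totals of 17331000 to 18204000 fragments in control and 16391000 to 16948000 with I1, recovered from the step between low values. In this table a gene's FPKM, its fragments per kilobase of exon scaled to the library total, is a whole number of reads times a fixed step, and all 5 genes gave whole reads. Myeloblast genes were high, with MPO at 6361 to 9392 FPKM. Among markers of other cell types, KRT8 and HBA1 were listed at 0 in all libraries and CD3E reached at most 0.0622 FPKM. Others were detected: the T cell gene CD8A had 2.19 to 3.73 FPKM, the monocyte genes LYZ and CSF1R 3.49 to 10.4 and 1.88 to 6.07, the B cell genes CD79A and PAX5 up to 1.57, the dendritic cell gene IL3RA 3.17 to 6.30 and the epithelial gene EPCAM 23.2 to 31.3 FPKM. The summed levels of T cell, dendritic, erythroid, monocyte, epithelial and fibroblast markers each overlapped between the groups. Control replicate 1 stood apart from the other libraries, with a mean correlation of 0.948 against 0.966 to 0.973. Genes richer in G and C had lower log2 fold changes, I1 minus control (Spearman's rho -0.76 across 11899 genes, which share libraries and are not independent, and -0.57 without control replicate 1). Each contrast of the 5 genes is also given after the trend with GC content was removed from every library, and the part of that trend and of control replicate 1 in the differences was otherwise not tested.

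ID1, the most abundant of the ID transcripts here, was lower in each library with I1 than in any control. Its level was 33.9, 23.4 and 26.4 FPKM in control replicates 1 to 3 and 21.03, 17.0 and 14.7 FPKM in I1 replicates 1 to 3, from 301 to 760 reads. The groups did not overlap, and the mean with I1 was 63.1% of that in control (17.6 ± 3.21 against 27.9 ± 5.41 FPKM, SD, n = 3 each). Taken on log2(FPKM + 1), the fold change was -0.63 ± 0.179 (SE), with -0.66, -0.44 and -0.80 in the same-numbered pairs. With the GC trend removed it was -0.47 ± 0.132 and the groups still did not overlap, and without control replicate 1 it was -0.49. In bulk RNA, fewer cells that express a gene and less RNA per cell cannot be told apart.

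ID3 (ENSG00000117318; chromosome 1, 23557918 to 23559794, minus strand) is a close relative of ID1 that lymphoid cells also use. Its transcript had 4.07, 3.92 and 5.51 FPKM in control replicates 1 to 3 and 2.85, 3.35 and 1.31 FPKM in I1 replicates 1 to 3. The groups did not overlap, although the reads were few, 122 to 175 in control and 39 to 102 with I1. Counting intervals did overlap between the closest libraries, 2.73 to 4.07 FPKM in I1 replicate 2 and 3.25 to 4.68 FPKM in control replicate 2. The mean with I1 was 55.7% of the control mean (2.50 ± 1.07 against 4.50 ± 0.878 FPKM), and the log2 fold change was -0.69 ± 0.248. I1 replicate 3 lay farthest from control: the pair differences were -0.40, -0.18 and -1.50, and without that library the log2 fold change was -0.41. After the GC correction it was -0.55 ± 0.240 and the groups overlapped.

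ID2 (ENSG00000115738; chromosome 2, 8678845 to 8684453, plus strand), the ID protein best known for its part in innate lymphoid and natural killer cells, differed the other way. Control replicates 1 to 3 had 3.61, 3.90 and 3.46 FPKM, and I1 replicates 1 to 3 had 4.32, 4.07 and 5.95 FPKM, from 135 to 218 reads. The groups did not overlap, and the log2 fold change was 0.30 ± 0.154. The closest libraries differed by less than their counting intervals (3.45 to 4.77 FPKM in I1 replicate 2 and 3.30 to 4.58 FPKM in control replicate 2). I1 replicate 3 again lay farthest out, and without it the log2 fold change was 0.16. The GC correction left it at 0.28 ± 0.143 with no overlap. An antisense gene, ID2-AS1, shares 38 exon bases with ID2 and had at most 0.0800 FPKM, and the strand setting of the counting is not given in the sources.

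**Figure D1:**
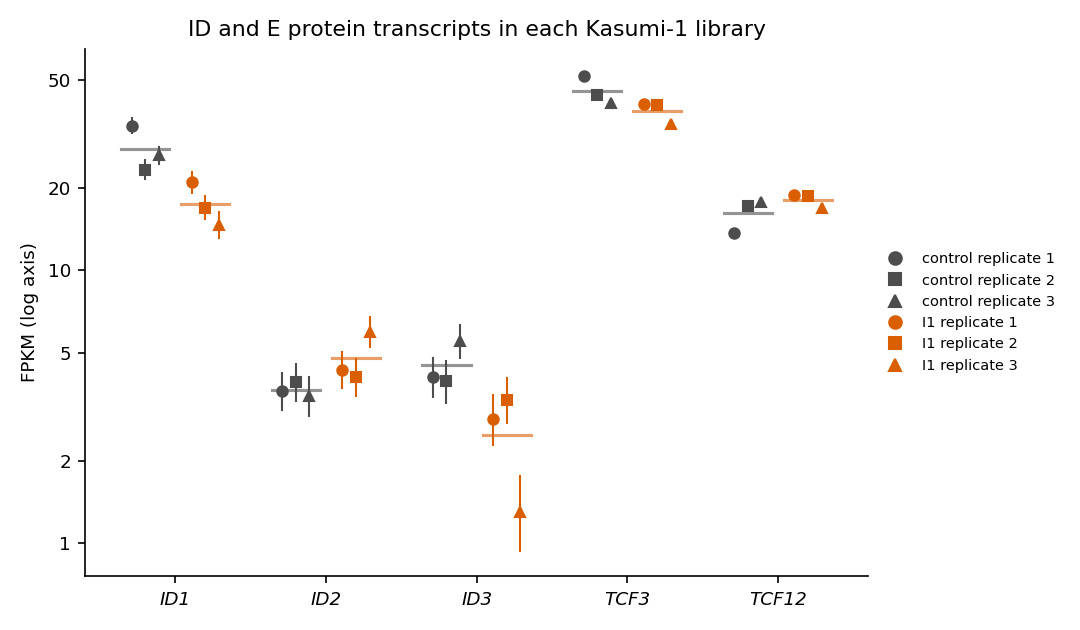
FPKM on a log axis of the 5 genes in each library, with exact 95% Poisson intervals that cover counting error alone as vertical bars and group means as horizontal lines. ID1, ID3 and TCF3 lie lower in all I1 libraries than in any control, ID2 lies higher, and the groups of TCF12 overlap.

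The 3 ID transcripts therefore did not differ from control in one direction. Ordered by falling ID3, the libraries were control replicates 3, 1 and 2 and then I1 replicates 2, 1 and 3, and this was exactly the order of rising ID2, a pattern chosen after the values were seen. After the GC correction control replicates 1 and 2 and I1 replicate 2 changed places in the order by ID3, and the match was no longer exact. The ratio of ID3 to ID2 was 1.13, 1.00 and 1.59 in the controls and 0.661, 0.823 and 0.220 with I1. In controls 1 and 2 and in I1 replicate 2 the exact 95% counting intervals of the genes overlapped, so their order there was not resolved. With the GC correction the ratio in control replicate 1 was 0.928, below 1.

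**Figure D2:**
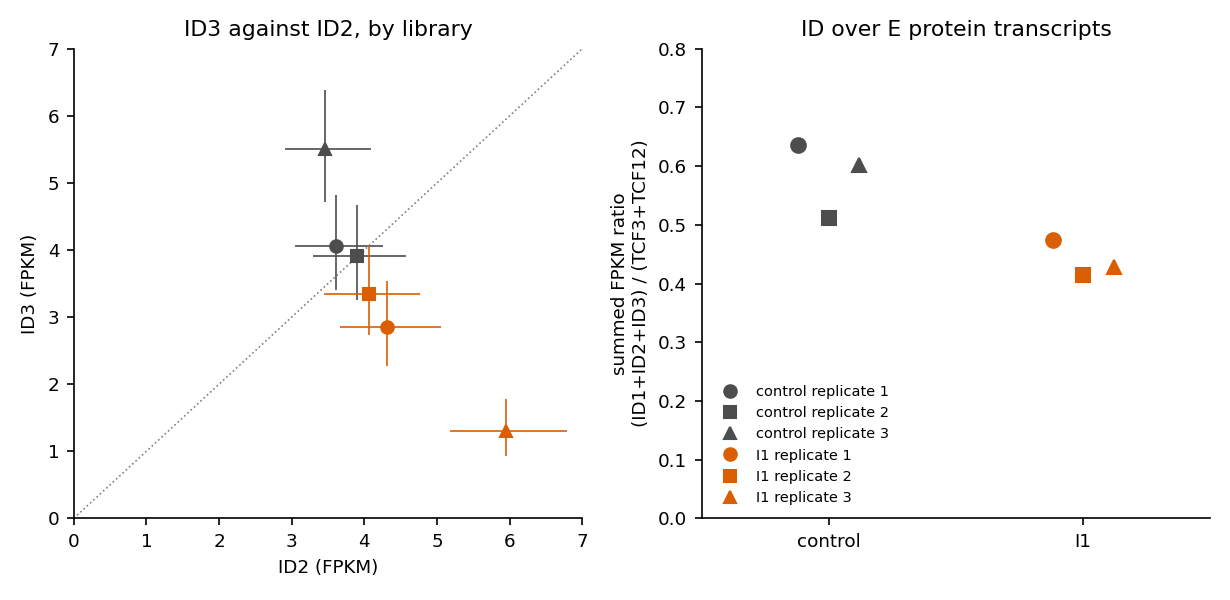
Left, ID3 against ID2 in FPKM, 1 point per library with exact 95% Poisson intervals and a dotted line of equal level. Right, the summed FPKM of the ID genes over that of TCF3 and TCF12, which lies between 0.511 and 0.636 in control and between 0.414 and 0.474 with I1.

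TCF3 encodes the E2A proteins E12 and E47, splice forms that a gene-level value does not separate. Its transcript was the most abundant of the 5, at 51.6, 43.8 and 40.9 FPKM in control replicates 1 to 3 and 40.6, 40.2 and 34.3 FPKM in I1 replicates 1 to 3, from 3471 to 5712 reads. The I1 libraries were all below the controls, the closest by less than the counting intervals (39.4 to 41.9 FPKM in I1 replicate 1 and 39.7 to 42.2 FPKM in control replicate 3). The mean with I1 was 84.5% of the control mean, with a log2 fold change of -0.23 ± 0.134 that became -0.14 without control replicate 1. Once the GC trend was removed the log2 fold change was -0.03 ± 0.0968, the groups overlapped, and the pair differences were -0.01, -0.04 and -0.06. TCF3 is the most GC-rich of the 5 genes, at 62.2%.

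TCF12 (ENSG00000140262; chromosome 15, 56918623 to 57299281, plus strand) encodes HEB, an E protein of T cell development that also takes part in complexes of the t(8;21) fusion. It had 13.7, 17.2 and 17.8 FPKM in control replicates 1 to 3 and 18.9, 18.8 and 16.9 FPKM in I1 replicates 1 to 3, from 2352 to 3003 reads. Control replicate 1 was the low value and the groups overlapped. The log2 fold change was 0.16 ± 0.134, and 0.05 without control replicate 1. With a GC content of 43.8% TCF12 is the most AT-rich of the 5, and after the GC correction its log2 fold change was -0.02 ± 0.0860. For both E protein transcripts the difference between the groups after this correction was smaller than its standard error.

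**Figure D3:**
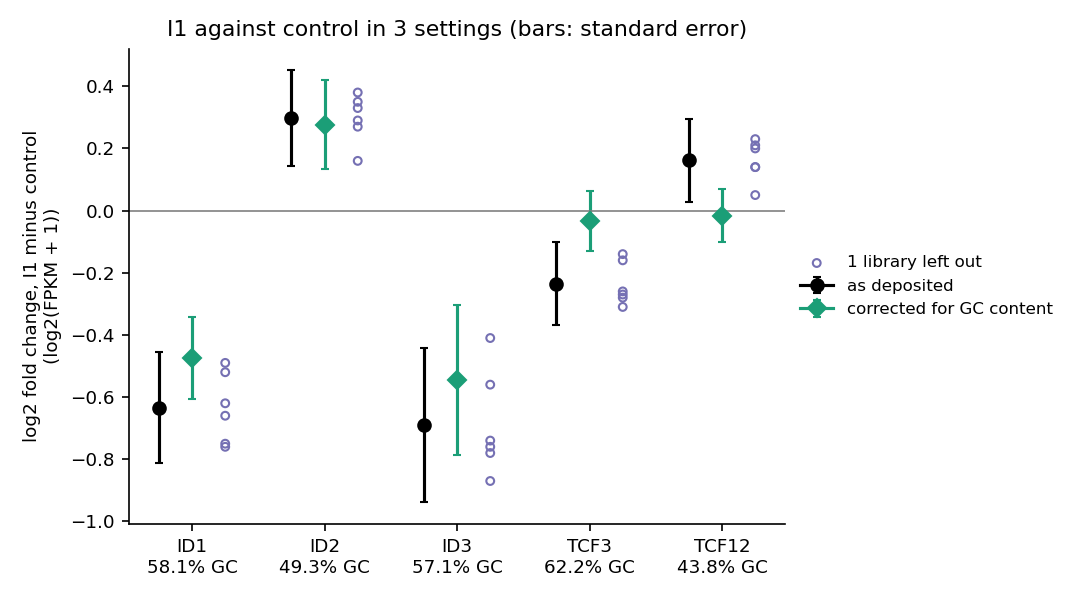
Log2 fold change of each gene, I1 minus control on log2(FPKM + 1), as deposited (circles, bars are SE), after the GC correction (diamonds, bars are SE) and with 1 library left out (open circles). ID1 and ID3 lie below 0 and ID2 above 0 in every setting shown, while TCF3 and TCF12 come to -0.03 and -0.02 after the correction.

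Read against the whole table, 0 of the 5 genes passed the limma test, an adjusted p under 0.05 together with at least 1 log2 unit of change either way, which 0.0336% of tested genes (4 of 11913) passed. The largest change among the 5 was -0.69 (ID3), short of 1 log2 unit, so none could pass at any p. Groups that did not overlap were found for 3 of 5 genes on the lower side (ID1, ID3 and TCF3), against 8.74% of tested genes, and for 1 of 5 on the higher side (ID2), against 12.9%, or 21.6% for either side. Because the genes were chosen with this contrast in view, nothing is read from these counts. The log2 fold change of ID1 was undercut by 57 of the 11913 tested genes and that of ID3 by 48, whereas 1488 genes had a lower value than TCF3. These ranks were taken before the GC correction, which brought ID1 to -0.47 and ID3 to -0.55, and ranks after it were not taken. The median over the 5 was -0.23, and -0.03 after the GC correction, against 0.03 over all tested genes.

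**Figure D4:**
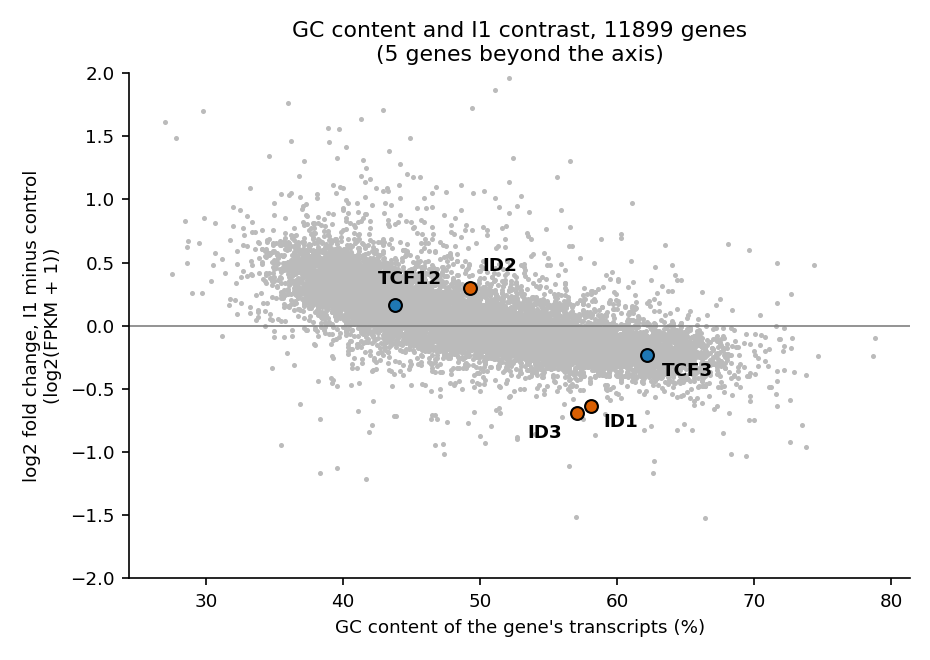
GC content in percent and log2 fold change, I1 minus control on log2(FPKM + 1), for the tested genes (grey), with the ID genes (orange) and the E protein genes (blue) marked. TCF3 and TCF12 lie within the sloping band of genes of their GC content, ID1 and ID3 lie below it and ID2 above its middle, and 5 genes are beyond the axis.

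FPKM is scaled to the length of all annotated exons of a gene together, 1233 bases for ID1, 6080 for TCF3 and 9446 for TCF12. A gene with many alternative exons can therefore read too low against a compact one, and the order below is one of FPKM. In control the order was TCF3 at 45.4 ± 5.53 FPKM, ID1 at 27.9 ± 5.41, TCF12 at 16.2 ± 2.21, ID3 at 4.50 ± 0.878 and ID2 at 3.66 ± 0.222 (SD, n = 3). Neighbours in this order did not overlap, and ID3 lay closest to ID2, with 3.92 FPKM as its lowest value against 3.90 FPKM as the highest of ID2. With I1 the order was TCF3 at 38.4 ± 3.51 FPKM, TCF12 at 18.2 ± 1.12, ID1 at 17.6 ± 3.21, ID2 at 4.78 ± 1.02 and ID3 at 2.50 ± 1.07. Here TCF12 and ID1 overlapped, so their order was not resolved, while the values of ID2 and ID3 kept apart. The counting intervals of ID2 and ID3 overlapped in control replicates 1 and 2 and in I1 replicate 2, so their order was not resolved in those libraries. ID1 exceeded TCF12 by 2.47, 1.36 and 1.48 times in control replicates 1 to 3, and the ratio was 1.12, 0.906 and 0.871 in I1 replicates 1 to 3. After the GC correction the ratios were 1.75, 1.41 and 1.40 in control and 1.20, 1.06 and 1.00 with I1, so the order in I1 replicates 2 and 3, where ID1 rests on 355 and 301 reads, was not resolved.

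Summed over the measured genes, ID transcripts stood at 0.636, 0.511 and 0.602 of the E protein transcripts in control replicates 1 to 3 and at 0.474, 0.414 and 0.428 in I1 replicates 1 to 3. The groups did not overlap, with means of 0.583 ± 0.0644 and 0.439 ± 0.0312 (SD, n = 3 each), and they did not overlap after the GC correction either, at 0.574 ± 0.0579 and 0.446 ± 0.0291. The ID sum was 36.0 ± 5.22 FPKM in control and 24.8 ± 3.15 with I1 without overlap, whereas the sums of TCF3 and TCF12 overlapped (61.6 ± 3.34 and 56.6 ± 4.64 FPKM). ID1 made up 74.6% to 81.5% of the ID sum in control and 66.9% to 74.6% with I1. After the GC correction its share was 74.4% to 80.2% and 68.1% to 75.1%, and the groups overlapped. TCF3 made up 69.7% to 79.0% of the E protein sum in control and 67.1% to 68.3% with I1, and after the GC correction 68.5% to 72.9% and 70.1% to 71.9%. TCF4 is not in these sums, and the levels are those of transcripts and not of proteins. The size of such a ratio also depends on the exon lengths used, which are the same in both groups.

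The genes most like each of the 5 were found by Pearson's r of log2(FPKM + 1) over the 6 libraries, among 6480 protein-coding genes with a mean of at least 5 FPKM. With 6 points a high r is common: 444 genes had an r above 0.9 with ID1, 533 with TCF3, 429 with TCF12, 47 with ID3 and 8 with ID2. ID1 was most like MZT2A (r = 0.998), whose reads may be split with a near-identical copy, and VASP, a regulator of actin filaments (r = 0.997). ID3 was most like CSRP1, a LIM domain protein (r = 0.978), and NFIC, a transcription factor (r = 0.973). ID2 was most like COX8A, a subunit of cytochrome oxidase (r = 0.955), and TRMT2B, a tRNA methyltransferase (r = 0.948). TCF3 was most like COQ8A (r = 0.999) and GPS1, a COP9 signalosome subunit (r = 0.997), and TCF12 was most like NDUFS1, a subunit of respiratory complex I (r = 0.992), and ACTR8 (r = 0.990). These r values were taken before the GC correction. MZT2A, VASP, COQ8A and GPS1 have 61.5%, 60.2%, 56.7% and 63% GC, and NDUFS1 and ACTR8 43.1% and 46.2%. COX8A and TRMT2B, most like ID2, have 58.6% and 49.7%, and CSRP1 and NFIC, most like ID3, 53% and 60.7%. With the correction the r of ID1 with TCF3 went from 0.904 to 0.312, and that of ID2 with ID3 from -0.984 to -0.969. The r of each other gene with TCF12 changed sign. For ID1 and TCF3 it went from -0.631 to 0.421 and from -0.657 to 0.111. For ID2 and ID3 it went from 0.173 to -0.676 and from -0.101 to 0.692. The part of the GC trend in these likenesses was not tested.

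Around these genes, 113 genes in 7 lists were followed, of which 94 have a row and 57 were tested. By limma 0 rose, 0 fell and 57 did not pass, and the smallest adjusted p was 0.467. At an unadjusted p under 0.05 there were 4 of the 57, beside 9.57% of all tested genes (1140 of 11913), and with same-numbered samples as pairs, the replicate block, 10 of the 57 beside 3227 of 11913. Groups did not overlap for 6 of the 57 on the lower side and 4 on the higher side, beside 8.74% and 12.9% of all tested genes. Their median log2 fold change was -0.03, and -0.01 after the GC correction.

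Of the 21 tissue-specific partners of E proteins, 12 have a row and 2 were tested, the blood partners LYL1 and TAL1. LYL1 was the more abundant, at 164, 85.0 and 106 FPKM in control replicates 1 to 3 and 97.3, 74.8 and 79.7 with I1, and the groups overlapped (log2 fold change -0.44 ± 0.236, limma adjusted p = 0.467, and -0.22 after the GC correction). TAL1 had 5.49 ± 1.90 FPKM in control and 4.77 ± 1.87 with I1. Control replicate 1 held the highest value of both genes, and without it the log2 fold change of LYL1 was -0.18 and that of TAL1 0.05, against -0.18 with it.

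Proteins that join E proteins in larger complexes were represented by 16 genes, 13 of them tested, with a median log2 fold change of 0.01. LMO2, the LIM-only bridge between TAL1 or LYL1 and LDB1, had 46.4, 31.8 and 38.2 FPKM in control and 29.9, 28.9 and 31.2 FPKM with I1. Its groups did not overlap, with a log2 fold change of -0.34 ± 0.150 (limma adjusted p = 0.467), -0.22 after the GC correction and -0.21 without control replicate 1. SSBP4, which stabilises LDB1, had 36.0 ± 8.68 and 25.1 ± 3.24 FPKM without overlap (-0.49 ± 0.182, adjusted p = 0.467, -0.24 after the correction and -0.31 without control replicate 1). LDB1 itself had 41.7 ± 10.8 and 35.8 ± 4.88 FPKM, and RUNX1 31.0 ± 3.29 and 34.5 ± 0.991 FPKM, both with overlapping groups. RUNX1T1, the part of the fusion that meets E proteins, was chosen after its values were seen, as the single gene of this list whose groups separated upward. It had 12.1, 14.4 and 15.3 FPKM in control replicates 1 to 3 and 17.5, 16.7 and 18.4 FPKM with I1. Its log2 fold change was 0.32 ± 0.124 (limma adjusted p = 0.467) and 0.19 after the GC correction, and the fusion transcript is not told apart at the level of genes.

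The BMP and TGF-beta pathways, the best known inputs to ID genes, were covered by 31 genes, 20 of them tested, with 10 above and 10 below 0 and a median of 0.00. Ligand and receptors of the TGF-beta branch were present. TGFB1, the ligand, had 108 ± 15.0 FPKM in control and 96.3 ± 10.1 with I1. The receptor TGFBR2 had 31.9 ± 6.53 and 33.7 ± 4.28, and the co-receptor ENG 25.2 ± 3.22 and 22.0 ± 1.75. TGFBR1 had 4.69 ± 1.18 and 6.34 ± 0.855 FPKM. Genes of the BMP branch are named here outside the rule for list genes. The ligand BMP4 had 2.47 ± 0.136 and 1.97 ± 0.394 FPKM without overlap (log2 fold change -0.23 ± 0.150, and -0.15 after the GC correction). The receptor BMPR2 had 1.91 ± 0.626 and 2.32 ± 0.319 FPKM, and the BMP antagonist NOG 16.4 ± 7.66 and 14.6 ± 3.99, both with overlap. SMAD4 and SMURF2 had log2 fold changes of 0.22 and 0.20 without overlap, and -0.07 and -0.08 after the GC correction. SMAD1 and SMAD6, at -0.03 and -0.02, had overlapping groups. Of the 20 tested genes, 1 did not overlap on the lower side and 3 on the higher side, beside 8.74% and 12.9% of all tested genes. SMAD5, which carries BMP signals to ID promoters, had 3.89, 7.92 and 6.68 FPKM in control and 8.29, 9.24 and 9.0 with I1, without overlap. Its log2 fold change was 0.50 ± 0.216 (limma adjusted p = 0.467) and 0.19 after the GC correction. Control replicate 1 was the low value, and without it the log2 fold change was 0.25.

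Known lymphoid and dendritic targets of E proteins had 10 of 25 genes tested, 8 of them below 0, beside 5424 of all 11913 tested genes, with a median log2 fold change of -0.12. After the GC correction 6 of the 10 were below 0 and the median was -0.04. The most abundant was GFI1, a transcriptional repressor of blood progenitors, at 142 ± 15.1 FPKM in control and 131 ± 14.3 with I1. NOTCH1 had 14.2 ± 1.97 and 12.8 ± 0.479 FPKM, BCL11A, a factor of B cells and dendritic cells, 7.16 ± 0.167 and 7.25 ± 1.14, and CD79B, a B cell receptor chain, 6.10 ± 2.36 and 4.18 ± 1.11. The groups overlapped for all 10.

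Of 7 cell cycle inhibitors that E proteins and ID proteins are known to control in opposite ways, 5 were tested, with a median of -0.07, and 0.10 after the GC correction. CDKN1B, the inhibitor p27, had 51.7 ± 4.56 FPKM in control and 56.6 ± 7.91 with I1, CDKN2C 49.4 ± 4.71 and 44.7 ± 7.40, and CDKN1A, the inhibitor p21, 2.73 ± 1.49 and 2.99 ± 1.70. The groups of these 3 genes overlapped. CDKN2D, named here outside the rule for list genes, was the 1 of the 5 whose groups did not overlap, beside 8.74% of all tested genes on the lower side. Its closest values were 1.92 FPKM in control replicate 2 and 1.91 FPKM in I1 replicate 1. The log2 fold change of CDKN2D was -0.10, and 0.10 after the GC correction.

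Among 9 HES, HEY and BHLHE repressors, which are helix-loop-helix proteins of another class, 3 were tested. HES6 had the lowest log2 fold change of all the listed genes, at -0.74 ± 0.260 (limma adjusted p = 0.467), from 12.8, 6.57 and 12.2 FPKM in control and 6.59, 4.14 and 6.53 with I1. Control replicate 2 lay just below I1 replicate 1, so the groups overlapped, and the value after the GC correction was -0.47. HEYL had 2.59 ± 0.591 and 2.47 ± 0.280 FPKM, and BHLHE40 4.36 ± 4.49 and 4.35 ± 4.03.

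Of the 4 genes of ID protein turnover, all were tested. USP1, which removes ubiquitin from ID proteins and so stabilises them, had 17.3, 36.3 and 32.5 FPKM in control and 34.7, 41.9 and 37.9 with I1. The overlap came from control replicate 2, and the log2 fold change of 0.46 ± 0.254 (limma adjusted p = 0.467) was 0.13 after the GC correction and 0.14 without control replicate 1. Its cofactor WDR48 had 8.14 ± 0.941 and 9.29 ± 1.09 FPKM. FZR1, which directs the anaphase-promoting complex to ID proteins, had 11.0 ± 0.931 and 9.61 ± 0.604 FPKM without overlap, with a log2 fold change of -0.18 ± 0.118 (adjusted p = 0.497) and 0.03 after the correction.

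**Figure D5:**
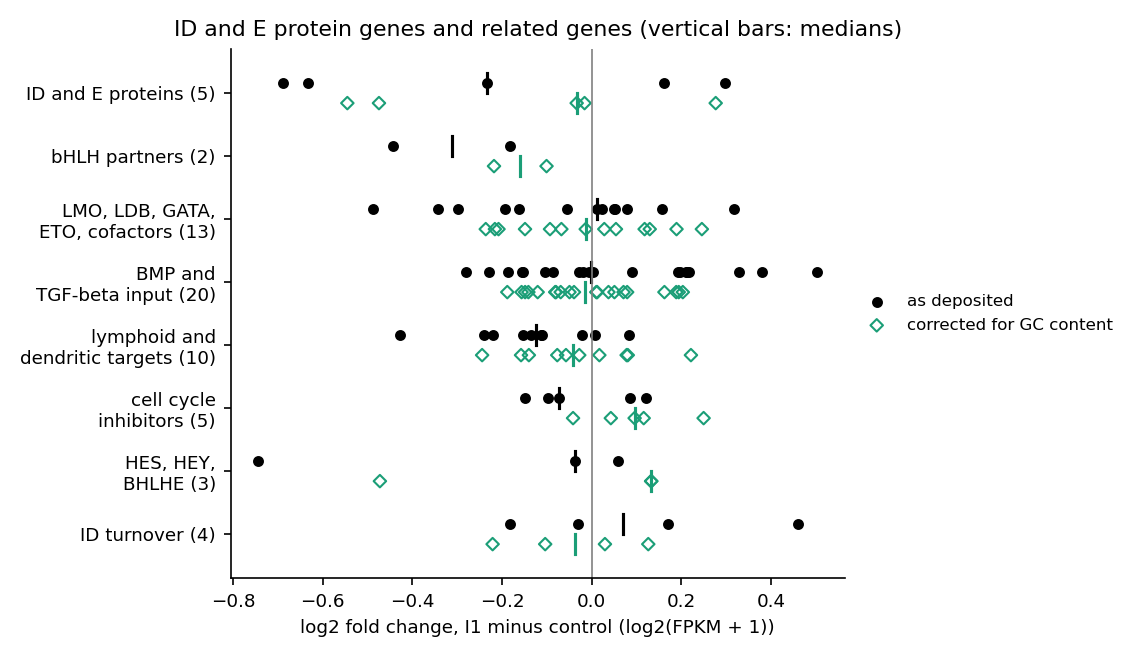
Log2 fold changes, I1 minus control on log2(FPKM + 1), of the 5 ID and E protein genes (top row) and of the tested genes of the 7 lists, 1 point per gene, as deposited (circles) and after the GC correction (diamonds), with medians as vertical bars and numbers of genes in brackets. ID1 and ID3, at -0.63 and -0.69, lie left of every listed gene but HES6 at -0.74.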

How the data were processed

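The authors deposited 1 table of FPKM values for 6 Kasumi-1 samples. The table is named for a different agent and different lines, but its 6 columns match these samples' titles; 0 columns were unused. Per the labels' protocols, libraries were made with the TruSeq Stranded mRNA kit. Reads were handled with Trimmomatic, HISAT2, HTSeq and Cufflinks on hg38, per the submitters' processing notes; roles, versions and strand setting: not given in the sources used here. Symbols, positions, exon lengths and GC content came from GENCODE release 29, which matched 29703 genes, and promoters from RefSeq, which held all 5 measured genes. Reads were whole within 0.05 in all libraries for 95.9% of matched genes. FPKM depends on a library total, so abundant genes shift all others.

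I1 and control were compared by limma 3.58.1 in R 4.3.3 with an intensity trend on log2(FPKM + 1), for genes that reached 1 FPKM in 3 or more libraries, 2-sided, with Benjamini-Hochberg adjustment over all tested genes. This scale understates the change of low genes. Tables were made with Python 3.11.15. The GC correction subtracted a lowess curve (span 0.3) of each library's deviation from the gene mean. The recovery of changed genes was checked on simulated independent libraries, which carried no effect of replicate number and no outlying library. That check therefore does not cover these features of the data. Same-numbered samples deviated together (correlations 0.476, 0.457 and 0.412). The numbers were taken as pairs only in the alternatives with a replicate block. The main fit had no replicate term, so its standard errors and adjusted p-values are unpaired. The genes and lists were chosen with earlier results of these data known. Named list genes are the 3 most abundant of each list, the 2 with the largest change among those with a mean of at least 5 FPKM and any that passed; markers are named for their level, and the 2 most alike genes per ID or E protein gene by r. The alternatives were another pseudocount (0.1), no filter or a stricter one on the mean (5 FPKM), median-of-ratios scaling, a replicate block, the GC correction alone or with the block, and leaving out each library.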

Additional observations from a re-analysis of the deposited data

How the results depend on the processing

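Over 13 alternatives none of the 5 genes passed by limma. None could, because none reached 1 log2 unit in any of them, the largest change being -0.90 for ID3 with a pseudocount of 0.1. ID1, ID2 and ID3 kept their direction in each that could be run, and a mean of at least 5 FPKM left ID2 and ID3 out. The filters and the replicate block do not alter a gene's log2 fold change, so they could not change a direction. As the groups of ID1, ID2 and ID3 did not overlap, another pseudocount or leaving out 1 library could not either. Only the scaling and the GC correction could have changed the direction of these genes. Leaving out 1 library gave log2 fold changes from -0.76 to -0.49 for ID1, from 0.16 (without I1 replicate 3) to 0.38 for ID2, from -0.87 to -0.41 (without I1 replicate 3) for ID3, from -0.31 to -0.14 (without control replicate 1) for TCF3 and from 0.05 (without control replicate 1) to 0.23 for TCF12. The correction for GC content brought TCF3 to -0.03 and TCF12 to -0.02, the latter a change of sign, and with the replicate block as well both values were the same. The cause was not tested. Over all tested genes 4 passed; 0 passed with a pseudocount of 0.1, without a filter, with a mean of at least 5 FPKM and with the GC correction (1076, 1726, 685 and 594 at an unadjusted p under 0.05), 1 with the block and the GC correction, 6 with the replicate block, and 0 to 2 without 1 library. Listed genes passed in 0 cases throughout.

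The replicate block, which pairs same-numbered samples, raised the genes at an unadjusted p under 0.05 from 1140 to 3227 and the listed ones from 4 to 10; no ID, E protein or listed gene passed under it. Of 24 named list genes 13 changed sign in some alternative, and none passed (smallest adjusted p 0.134). With the GC correction, and with the block as well, BCL11A went to -0.06, ENG to 0.01, FZR1 to 0.03, GFI1 to 0.02, HEYL to 0.13, NOTCH1 to 0.08, TGFB1 to 0.04 and WDR48 to -0.10, and with median-of-ratios scaling BCL11A to -0.05. Without 1 library BCL11A ran from -0.08 to 0.12, BHLHE40 from -0.52 to 0.71, CDKN1A from -0.24 to 0.39, HEYL from -0.15 to 0.08, LDB1 from -0.33 to 0.00, TAL1 from -0.42 to 0.06 and TGFBR2 from -0.08 to 0.21. For ID3 in I1 replicate 3, 39 reads gave an exact 95% Poisson interval of 0.928 to 1.78 FPKM, so depth limits this gene most.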

Other observations

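Some of the listed genes differed more between replicate numbers than between control and I1, a pattern chosen after the values were seen. BHLHE40, a repressor induced by stress and hypoxia, had 9.47 FPKM in control replicate 3 and 8.92 in I1 replicate 3, against 1.08 to 2.83 FPKM in the other 4 libraries. CDKN1A had 4.43 and 4.89 FPKM in the libraries numbered 3, against 1.64 to 2.42 in the others. CXCR4, the receptor that holds progenitors in the marrow, had 5.47 and 6.49 FPKM there, against 1.89 to 3.31. IGLL1, a surrogate light chain gene that E proteins activate in B cell precursors, went the other way, with 1.69 and 0.998 FPKM in the libraries numbered 3 and 3.79 to 5.59 in the others.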
